A study of Mus musculus with 11 samples.

Results

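The chemokine receptors described here are 10 genes, Ccr2, Ccr4, Ccr6, Ccr7, Ccr8, Ccr9, Cxcr3, Cxcr4, Cxcr5 and Cxcr6. The study read them on arrays in mouse CD4 T cells transduced with a mutant FoxP3, wild-type (WT) FoxP3 or an empty vector. The members are all probe sets that the platform annotation pairs with 1 of these symbols and no other, which gave 18 probe sets of 45037 tested on the array, and 10 genes of 18193 with such a probe set. A probe set is a group of short probes read together as 1 value. Ccr9 had 5 probe sets, Ccr2 had 4, Cxcr6 had 2 and each of the other genes had 1.

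The arrays fell into 4 groups: 2 arrays of cells transduced with R397W FoxP3, 3 with A384T FoxP3, 3 with WT FoxP3 and 3 mock arrays of cells that received the MIGR1 vector alone. All groups started from naive CD4 T cells (CD25-negative, CD45RB-high) of BALB/cA mice, taken from lymph nodes and spleen. The cells were stimulated with 0.5 µg/ml anti-CD3e, 10 ng/ml IL-2 and irradiated (20 Gy), T cell-depleted spleen cells of the same strain, infected with retrovirus 24 h later and sorted as GFP-high CD4 cells on day 7. The labels give no ages and do not say whether arrays of a group came from separate mice or cultures, so a p-value reflects only how these arrays varied, and that variation may be technical. FoxP3 is the forkhead transcription factor of regulatory T cells (Treg cells), and in this model it is driven by a retrovirus in activated conventional cells, so each group is a model of forced expression and holds no natural Treg cells by design.

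Each value is on a log2 scale relative to the mock median (the median of the 3 mock arrays) of its own probe set, so changes between groups can be read but expression levels cannot, and probe sets cannot be ranked against each other by level. For the same reason the CD4 T cell label could not be checked against the level of its markers. In whole-population RNA, fewer cells with a transcript and less transcript per cell cannot be told apart. Array medians, over the whole table, were -0.016 to 0.0019. Differences are given ± SE from limma with all 11 arrays, and a probe set was called at an adjusted p (Benjamini-Hochberg over 45037 probe sets) under 0.05. Over all probe sets, arrays with the same number in their titles had positively correlated deviations from their group means (Pearson's r = 0.107 to 0.718), though single probe sets varied. The p with the array number as a block (a term for each number in the fit) is therefore given where it changes a receptor call. For the other genes it is given only in part.

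Chemokine receptors are seven-transmembrane receptors that couple to inhibitory G proteins and steer a migrating cell up a gradient of their chemokine ligands. The set on a T cell follows its state: naive cells carry CCR7 for entry into lymph nodes, type 1 helper (Th1) and effector cells carry CXCR3, CXCR6 and CCR2 for inflamed tissue, and type 2 helper cells and many Treg cells carry CCR4 and CCR8. CCR6 marks type 17 helper cells, CCR9 directs cells to the small intestine, CXCR5 directs them to B cell follicles, and CXCR4 reads CXCL12, which holds cells in bone marrow and other tissues.

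The 10 genes divided into 6 that varied and 4 that hardly did, a division made after their values were seen. The 10 probe sets of Ccr2, Ccr4, Ccr7, Cxcr3, Cxcr4 and Cxcr6 had standard deviations of 0.55 to 1.51 over the 11 arrays. The 8 probe sets of Ccr6, Ccr8, Ccr9 and Cxcr5 had standard deviations of 0.12 to 0.23. The heat map of all 18 probe sets shows Cxcr6, Ccr2 and Cxcr4 as the low block of the A384T and WT arrays. Ccr4 is above 0 on all 6 of these arrays, and Cxcr3 on all of them but WT 3. Of the receptors for inflamed tissue, Cxcr3 was therefore high on A384T arrays where Cxcr6 and Ccr2 were low.

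**Figure D1:**
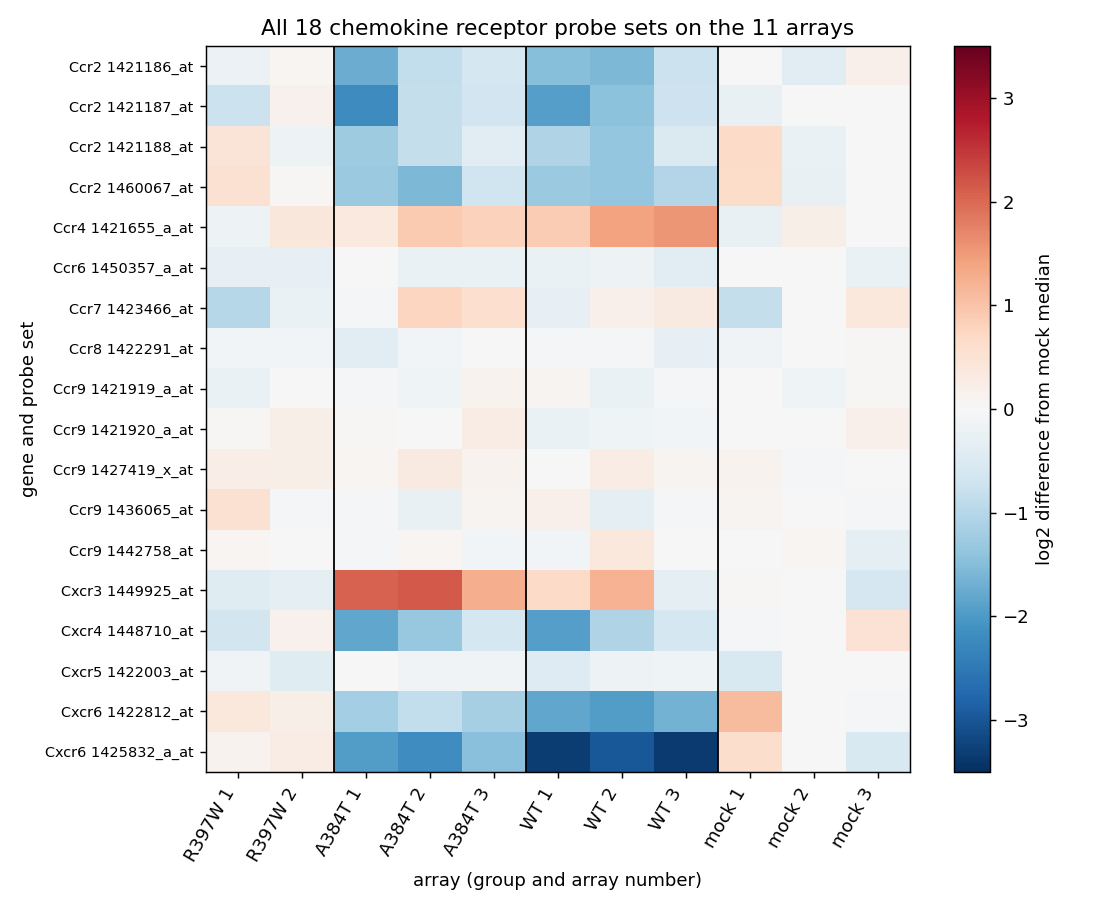
Log2 difference from the mock median (colour) for all 18 chemokine receptor probe sets (down) on the 11 arrays (across, by group and array number, with lines between groups). Both Cxcr6 probe sets, the 4 of Ccr2 and that of Cxcr4 are below 0 on every A384T and WT array, while the R397W values of these genes lie between -0.75 and 0.53.

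In WT over mock cells, 4 of 18 receptor probe sets (22.2%) were called, against 2.66% of all probe sets. They were both probe sets of Cxcr6 and 1 of Ccr2, which fell (3 of 18, against 1.17% of all), and that of Ccr4, which rose (1 of 18, against 1.49% of all). In A384T over mock cells, 4 of 18 were called as well, against 2.17% of all probe sets, and here both Cxcr6 probe sets and 1 of Ccr2 fell (3 of 18, against 0.917% of all) while Cxcr3 rose (1 of 18, against 1.25% of all). In R397W over mock cells limma called 0 of the 18 and 0% of all probe sets, and 0 of the 18 had an unadjusted p under 0.05, against 1.84% of all. The blocked fit called 0 of 18 in R397W over mock (0% of all probe sets), 10 of 18 in A384T over mock (7.33%) and 9 of 18 in WT over mock (7.63%). The probe sets added by the block were the other 3 of Ccr2 and that of Cxcr4 in both comparisons, Cxcr3 in WT over mock, and Ccr4 and Ccr7 in A384T over mock. Probe sets of 1 gene read the same transcripts, so these counts stand for 3 genes in each of the first 2 comparisons, and 5 and 6 genes with the block.

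Groups that did not overlap were commoner among the receptors than calls were. They came to 2 of 18 probe sets in R397W over mock (those of Ccr6 at -0.22 and 1 of Ccr9 at 0.19, against 11.9% of all probe sets), 9 of 18 in A384T over mock (14.3%) and 9 of 18 in WT over mock (15.1%). In R397W over A384T they came to 8 of 18 (22.7%), in R397W over WT to 7 of 18 (23.3%) and in A384T over WT to 5 of 18 (both probe sets of Cxcr6, Cxcr3, Cxcr5 and 1 of Ccr9, against 7.46%).

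The median difference of the 18 probe sets lay below that of all probe sets in each comparison with mock. It was -0.04 in R397W over mock (0.0038 for all probe sets), -0.09 in A384T over mock (-0.0067 for all) and -0.16 in WT over mock (-0.013 for all). Single receptors went in opposite directions. Their differences spanned -0.46 to 0.22 in R397W over mock, -1.89 to 2.01 in A384T over mock and -3.25 to 1.30 in WT over mock.

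**Figure D2:**
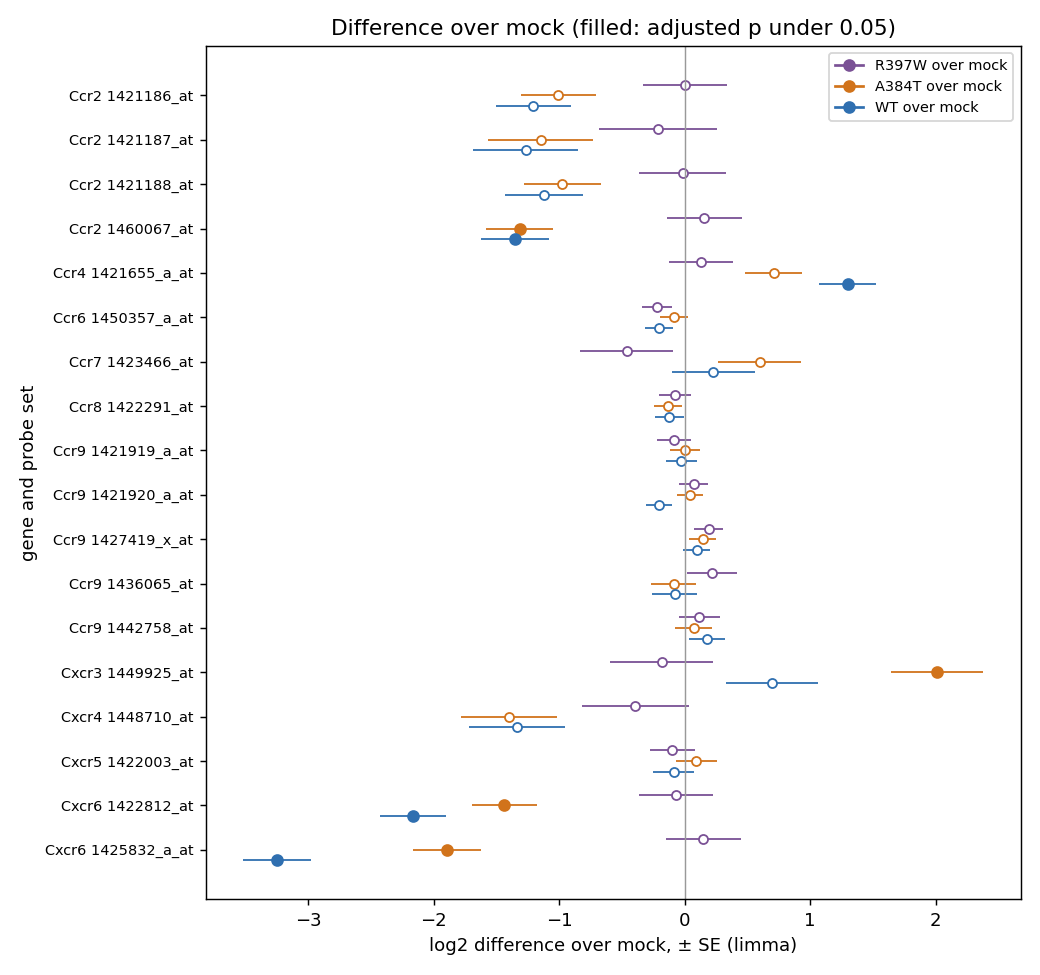
Log2 difference over mock (x axis, ± SE from limma) of each chemokine receptor probe set (y axis) for R397W, A384T and WT FoxP3. Filled points had an adjusted p under 0.05. The R397W points lie between -0.46 and 0.22, while Cxcr6 reaches -3.25 with WT FoxP3 and Cxcr3 reaches 2.01 with A384T.

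The promoters of Cxcr6, Ccr2, Cxcr4, Cxcr3 and Ccr4, the receptors the results turn on, are shown so that the letters upstream of their starts can be read beside the values. RefSeq promoter sequences (GRCm38.p6, 250 bases before the start and 50 after it) were matched for 8 of the 10 genes. Capitals mark matches, on either strand, to a forkhead motif (GTAAACA), an AP-1 motif (TGANTCA), a RUNX motif (TGTGGT), a T-box motif (GGTGTGA) and an NFAT motif (GGAAAA), and no 2 matches overlapped. Each sequence is written 5′ to 3′ along the gene.
Cxcr6, chr9:123806227-123806526, plus strand: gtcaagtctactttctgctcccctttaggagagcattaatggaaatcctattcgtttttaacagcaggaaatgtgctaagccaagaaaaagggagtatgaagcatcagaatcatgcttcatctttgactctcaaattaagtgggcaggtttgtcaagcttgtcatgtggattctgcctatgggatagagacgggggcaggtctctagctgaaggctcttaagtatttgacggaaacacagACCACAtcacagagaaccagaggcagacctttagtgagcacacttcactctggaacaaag
Ccr2, chr9:124101933-124102232, plus strand: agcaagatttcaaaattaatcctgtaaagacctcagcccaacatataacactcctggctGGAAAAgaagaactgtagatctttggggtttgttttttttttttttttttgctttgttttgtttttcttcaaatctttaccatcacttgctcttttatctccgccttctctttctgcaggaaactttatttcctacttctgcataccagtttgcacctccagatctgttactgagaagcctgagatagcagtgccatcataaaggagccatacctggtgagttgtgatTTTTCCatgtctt
Cxcr4, chr1:128592250-128592549, minus strand: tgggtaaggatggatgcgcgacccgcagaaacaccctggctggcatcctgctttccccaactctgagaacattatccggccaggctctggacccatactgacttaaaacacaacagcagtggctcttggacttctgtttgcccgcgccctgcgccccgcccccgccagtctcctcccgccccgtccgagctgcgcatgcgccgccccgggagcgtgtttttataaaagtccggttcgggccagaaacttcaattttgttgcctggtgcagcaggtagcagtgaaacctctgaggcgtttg
Cxcr3, chrX:101734098-101734397, minus strand: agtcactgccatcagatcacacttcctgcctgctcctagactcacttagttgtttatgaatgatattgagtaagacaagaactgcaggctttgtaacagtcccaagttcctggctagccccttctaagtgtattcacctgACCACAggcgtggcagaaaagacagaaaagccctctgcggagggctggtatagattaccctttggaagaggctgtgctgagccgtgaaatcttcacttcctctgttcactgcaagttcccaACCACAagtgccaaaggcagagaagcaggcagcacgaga
Ccr4, chr9:114496495-114496794, minus strand: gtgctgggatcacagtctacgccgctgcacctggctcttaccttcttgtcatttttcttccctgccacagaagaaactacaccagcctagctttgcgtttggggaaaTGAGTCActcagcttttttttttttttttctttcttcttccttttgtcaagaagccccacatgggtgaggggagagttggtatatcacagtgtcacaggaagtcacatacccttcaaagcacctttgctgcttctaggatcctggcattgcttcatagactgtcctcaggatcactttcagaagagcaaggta
The forkhead motif occurred in 0 of the 9 promoters of the 8 matched genes (Ccr6 has 2), and in 3.65% of all 32851 promoters in the table. The AP-1 motif occurred in 1, that of Ccr4, where it begins 143 bases before the start (7.81% of all promoters). The RUNX motif occurred in 3, with 1 match in Cxcr6, 2 in Cxcr3 and 1 in a Ccr6 promoter (16.8% of all). The T-box motif occurred in 0 (3.98% of all), and the NFAT motif in 1, with 2 matches in Ccr2 (23.4% of all). A match says only that the letters are in the window, and no match says only that they are not.

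Cxcr6, the receptor for CXCL16 on Th1, cytotoxic and tissue-resident T cells, had the largest difference of any member, which was that of R397W over WT. At probe set 1425832_a_at it had values of 0.11 and 0.25 on the R397W arrays, -1.96, -2.16 and -1.46 on the A384T arrays, -3.34, -2.97 and -3.34 on the WT arrays, and 0.62, 0.00 and -0.53 on the mock arrays. The WT arrays were the lowest, the A384T arrays lay between, and the R397W arrays lay inside the range of the mock arrays. None of the A384T, WT and mock groups overlapped. In WT over mock cells Cxcr6 was 9.49-fold lower (-3.25 ± 0.27, adjusted p = 0.000195), and in A384T over mock cells it was 3.71-fold lower (-1.89 ± 0.27, adjusted p = 0.00512). R397W over mock gave 0.15 ± 0.30 (adjusted p = 1).

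The second Cxcr6 probe set, 1422812_at, followed the first over the 11 arrays (Pearson's r = 0.961, a description over arrays that share groups) with smaller differences. Its values were 0.37 and 0.21 on the R397W arrays, -1.20, -0.87 and -1.15 on the A384T arrays, -1.81, -1.96 and -1.65 on the WT arrays, and 1.11, 0.00 and -0.03 on the mock arrays. It fell in WT over mock (-2.16 ± 0.26, adjusted p = 0.00167) and in A384T over mock (-1.43 ± 0.26, adjusted p = 0.0195). WT was lowest and A384T next at both probe sets, while the means of R397W and mock cells changed places (0.18 in R397W and 0.03 in mock cells at the first, 0.29 in R397W and 0.36 in mock cells at the second).

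The step between A384T and WT cells at Cxcr6 was tested by itself. A384T over WT was 1.36 ± 0.27 at 1425832_a_at (adjusted p = 0.187, and 0.0602 with the block) and 0.73 ± 0.26 at 1422812_at (adjusted p = 1, and 0.361 with the block), so the difference did not pass the test although the groups did not overlap at either probe set. Over the alternatives the first of these adjusted p-values ran from 0.0602 to 1. R397W over WT was 3.40 ± 0.30 at 1425832_a_at (10.5-fold higher, adjusted p = 0.00052) and 2.10 ± 0.29 at 1422812_at (adjusted p = 0.00569). R397W over A384T was 2.04 ± 0.30 at the first (adjusted p = 0.00867) and 1.37 ± 0.29 at the second (adjusted p = 0.0553, and 0.0183 with the block, with a range of 0.00218 to 0.45 over 18 alternatives). The calls of 1425832_a_at over mock (both A384T and WT) and that of R397W over WT were kept in all 11 fits without 1 array. That of A384T over mock was lost after quantile normalization of the deposited values (adjusted p = 0.191), and without the arrays numbered 1 (difference -1.55). That of R397W over A384T was lost after quantile normalization (0.188) and with only its 2 groups fitted (0.0505). It was also lost without R397W 1 (difference 2.11), R397W 2 (1.97) or the arrays numbered 1 (2.06). At 1422812_at the A384T over mock call was lost without A384T 1 (0.0796) or A384T 3 (0.0618), and with only its 2 groups fitted (0.108). The R397W over WT call was lost there without R397W 1 (difference 2.01). Quantile normalization lost both (0.175 and 0.136).

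Ccr2, the receptor for the monocyte chemoattractant CCL2, which effector T cells also carry, had lower means in A384T and WT cells than in mock cells at all 4 of its probe sets. At 1460067_at it had values of 0.53 and 0.05 on the R397W arrays, -1.31, -1.56 and -0.69 on the A384T arrays, -1.29, -1.35 and -1.03 on the WT arrays, and 0.65, -0.26 and 0.00 on the mock arrays. The A384T and WT arrays overlapped each other, and both groups lay below all R397W and mock arrays. This probe set fell 2.49-fold in A384T over mock cells (-1.31 ± 0.27, adjusted p = 0.0342) and 2.55-fold in WT over mock cells (-1.35 ± 0.27, adjusted p = 0.0263).

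At the other 3 Ccr2 probe sets the A384T over mock differences were -1.15 to -0.97, with adjusted p-values of 0.158 to 0.282, and of 0.0084 to 0.0367 with the block. The WT over mock differences were -1.27 to -1.12, with adjusted p-values of 0.074 to 0.21, and of 0.00368 to 0.0176 with the block. None of these passed the test without the block and all passed with it. Pearson's r between pairs of Ccr2 probe sets was 0.691 to 0.946 over the 11 arrays. At 1421187_at, array 1 was the lowest of its group in all 4 groups, with -0.75 for R397W, -2.19 for A384T, -1.91 for WT and -0.26 for mock.

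Ccr2 did not separate A384T from WT cells, with an A384T over WT difference of 0.04 ± 0.27 at 1460067_at (adjusted p = 1) and of 0.12 to 0.20 at the other 3 probe sets. At 1460067_at R397W cells were higher than both, by 1.47 ± 0.30 over A384T (adjusted p = 0.0437) and 1.51 ± 0.30 over WT (adjusted p = 0.0352). The other 3 probe sets did not pass. In R397W over A384T they were at 0.93 to 1.01, with adjusted p-values of 0.264 to 0.565. With the block 1421186_at (adjusted p = 0.0115, ranging up to 0.619 over 18 alternatives) and 1421187_at (0.0223, ranging up to 0.9) passed there and 1421188_at did not (0.0518). In R397W over WT the 3 were at 1.05 to 1.21, with adjusted p-values of 0.146 to 0.496, and of 0.00475 to 0.029 with the block, ranging up to 0.867 over 18 alternatives. The calls at 1460067_at rest on few arrays. Over all 19 alternatives the adjusted p at 1460067_at ran from 0.00221 to 0.259 in A384T over mock, from 0.00172 to 0.191 in WT over mock, from 0.00245 to 0.373 in R397W over A384T and from 0.00197 to 0.291 in R397W over WT. In WT over mock the call was lost without mock 1 (0.0761), mock 3 (0.0688), WT 1 (0.0947), WT 2 (0.108) or WT 3 (0.0525). In A384T over mock it was lost without mock 1 (0.0978), mock 3 (0.0851), WT 1 (0.0545), WT 2 (0.0566), WT 3 (0.0506), A384T 1 (0.124) or A384T 2 (0.129). It was lost in R397W over WT without mock 3 (0.0578), WT 1 (0.105), WT 2 (0.125), WT 3 (0.0654), R397W 1 (0.273) or R397W 2 (0.104), and in R397W over A384T without mock 3 (0.0714), any WT array (0.0657 to 0.0719), A384T 1 (0.132), A384T 2 (0.133), R397W 1 (0.315) or R397W 2 (0.123).

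Cxcr4, the receptor for CXCL12, had values of -0.64 and 0.15 on the R397W arrays, -1.81, -1.34 and -0.62 on the A384T arrays, -1.92, -1.04 and -0.62 on the WT arrays, and -0.08, 0.00 and 0.50 on the mock arrays. All A384T and WT arrays lay below all mock arrays, and they overlapped each other. The A384T over mock difference was -1.40 ± 0.38 (adjusted p = 0.113) and that of WT over mock -1.34 ± 0.38 (adjusted p = 0.126), so neither passed the test without the block. Within array numbers the spread was smaller, with an SE of 0.15 in the blocked fit. The adjusted p of A384T over mock was 0.000322 with the block and ran up to 0.329 over the 19 alternatives. That of WT over mock was 0.000392 with the block and ran up to 0.351. A384T over WT was -0.06 ± 0.38, or ± 0.15 with the block. R397W over A384T was 1.01 ± 0.42 (adjusted p = 0.442), and 1.27 with the block (adjusted p = 0.0021, with a range of that value to 0.81). R397W over WT was 0.94 ± 0.42 (adjusted p = 0.505), and 1.21 with the block (adjusted p = 0.00257, with a range of that value to 0.868).

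Cxcr3, the receptor for the interferon-induced chemokines CXCL9, CXCL10 and CXCL11 and a marker of Th1 cells, was highest in A384T cells. Its values were -0.41 and -0.31 on the R397W arrays, 2.07, 2.15 and 1.27 on the A384T arrays, 0.68, 1.21 and -0.34 on the WT arrays, and 0.04, 0.00 and -0.58 on the mock arrays. The A384T arrays lay above all other arrays, and the WT arrays were spread widely, with WT 3 among the mock arrays. In A384T over mock cells Cxcr3 was 4.04-fold higher (2.01 ± 0.37, adjusted p = 0.0194), and in WT over mock cells the difference was 0.70 ± 0.37 (adjusted p = 0.557, and 0.0184 with the block, ranging from that value to 0.895 over the alternatives).

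The difference of A384T over WT at Cxcr3 was 1.32 ± 0.37, or 2.49-fold, and did not pass the test without the block (adjusted p = 0.593). With the block it passed (1.32 ± 0.15, adjusted p = 0.00389), and over the 19 alternatives the adjusted p ran from that value to 1. In each of the 3 array numbers the A384T array was above the WT array. R397W over A384T was -2.20 ± 0.41, or 4.58-fold lower (adjusted p = 0.0295). R397W over WT was -0.88 ± 0.41 (adjusted p = 0.534), and -1.18 with the block (adjusted p = 0.00282, ranging up to 0.89), and R397W over mock was -0.18 ± 0.41 (adjusted p = 1). The A384T over mock call was lost without mock 2 (0.0588), mock 3 (0.0822), A384T 1 (0.0811) or A384T 2 (0.087), and that of R397W over A384T without mock 2 (0.0507), A384T 1 (0.101), A384T 2 (0.101), R397W 1 (0.201) or R397W 2 (0.163).

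**Figure D3:**
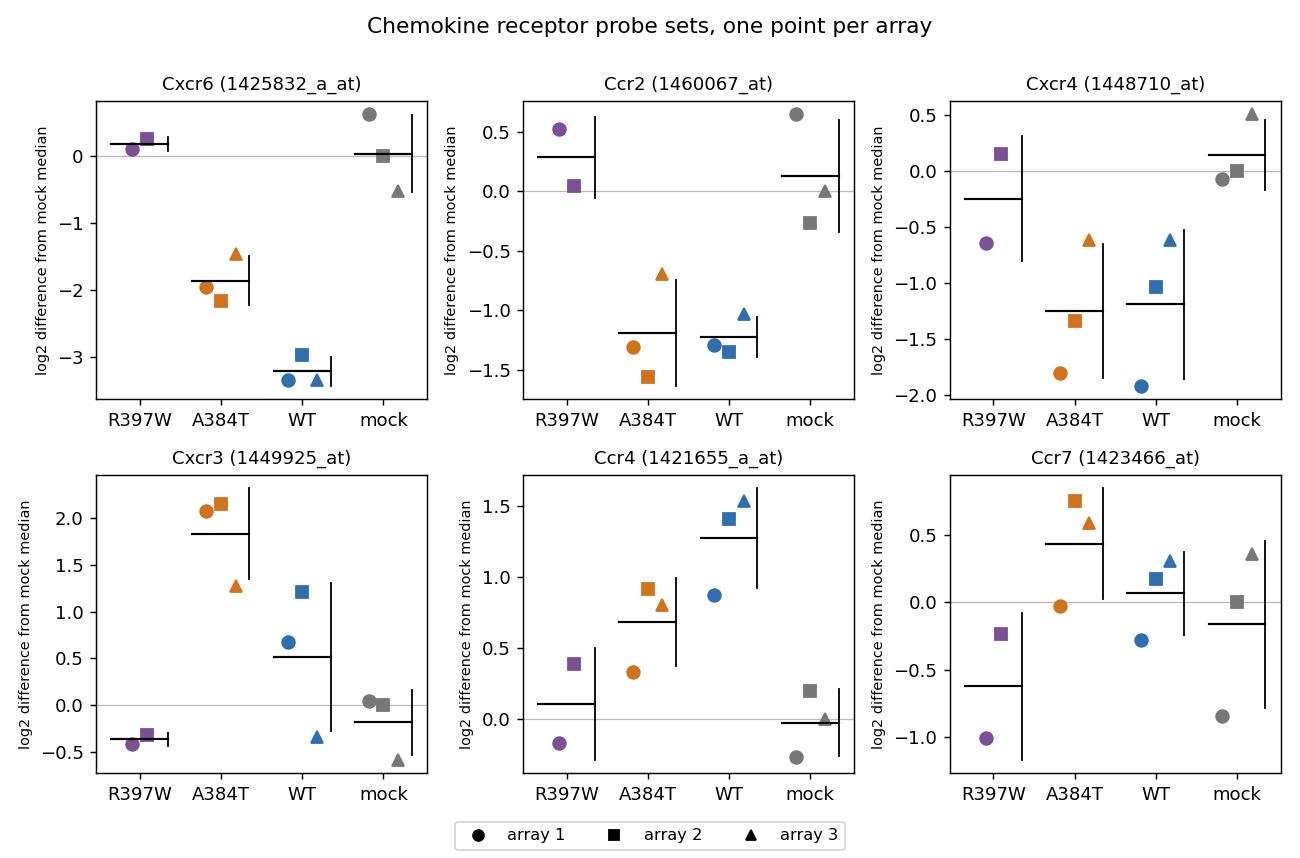
Log2 difference from the mock median (y axis) on each array for 6 receptor probe sets, by group, with the mean (horizontal line) and SD (vertical line, n = 2 for R397W and 3 for the others) and a marker for each array number. Each gene is shown by its probe set with the lowest adjusted p in any comparison, which is 1425832_a_at for Cxcr6 and 1460067_at for Ccr2. Cxcr6 is lower in A384T (-1.96, -2.16 and -1.46) than in mock arrays and lowest in WT (-3.34, -2.97 and -3.34), Cxcr3 is highest with A384T, and Ccr4 is highest with WT.

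Ccr4, the receptor for CCL17 and CCL22 on Treg and type 2 helper cells, was highest in WT cells. It had values of -0.17 and 0.39 on the R397W arrays, 0.34, 0.92 and 0.81 on the A384T arrays, 0.88, 1.41 and 1.54 on the WT arrays, and -0.27, 0.20 and 0.00 on the mock arrays. The A384T and WT arrays lay above all mock arrays, and A384T 2 was higher than WT 1. Ccr4 rose 2.46-fold in WT over mock cells (1.30 ± 0.23, adjusted p = 0.0134), a call lost without mock 1 (0.0562), mock 3 (0.0508), WT 2 (0.0663) or WT 3 (0.0539). In A384T over mock cells the difference was 0.71 ± 0.23 (adjusted p = 0.196).

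With the block Ccr4 passed in 5 of the 6 comparisons. The blocked difference was 0.71 in A384T over mock (adjusted p = 0.0017), -0.59 in A384T over WT (adjusted p = 0.0312), -1.10 in R397W over WT (adjusted p = 0.000326) and -0.51 in R397W over A384T (adjusted p = 0.0295). Without the block A384T over WT was -0.59 ± 0.23 (adjusted p = 1), R397W over WT was -1.17 ± 0.25 (adjusted p = 0.0534) and R397W over A384T was -0.58 ± 0.25 (adjusted p = 0.474). Over the 19 alternatives the adjusted p of A384T over WT ran from 0.0312 to 1 and that of R397W over WT from 0.000326 to 0.379, while that of A384T over mock ran up to 0.584 and that of R397W over A384T up to 0.935. The order of the means was WT (1.28 ± 0.35, SD, n = 3), then A384T (0.69 ± 0.31, n = 3), then R397W (0.11 ± 0.40, n = 2) and mock (-0.02 ± 0.23, n = 3). The last pair differed by 0.13 ± 0.25.

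Ccr7, the lymph node homing receptor that reads CCL19 and CCL21 and is lost as T cells become effectors, varied more between array numbers than between WT and mock cells. Its values were -1.01 and -0.24 on the R397W arrays, -0.03, 0.75 and 0.59 on the A384T arrays, -0.28, 0.17 and 0.31 on the WT arrays, and -0.85, 0.00 and 0.36 on the mock arrays. The array numbered 1 was the lowest in each of the 4 groups, by 0.77 below the other R397W array and by 0.70, 0.52 and 1.03 below the mean of the other A384T, WT and mock arrays. WT over mock was 0.23 ± 0.33 (adjusted p = 0.917). A384T over mock was 0.60 ± 0.33 (adjusted p = 0.576, and 0.0191 with the block, ranging up to 1). R397W over A384T was -1.06 ± 0.37 (adjusted p = 0.298), and -0.91 with the block (adjusted p = 0.0056, ranging up to 0.8 over the 19 alternatives).

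The pattern by array number was shared by some other members. Of the 18 probe sets, 5 were lower on array 1 than on the rest of its group in all 4 groups. They were those of Ccr4, Ccr7 and Cxcr4 and 1 each of Ccr2 and Ccr9. Another 2 were higher in all 4, Ccr6 (by only 0.02 in R397W cells) and 1 of Ccr9 (by only 0.01 in A384T cells). The rest had mixed directions. The share of all probe sets with the same direction in all 4 groups was not counted. Array 1 of Cxcr4 was lower by 0.79 in R397W, 0.83 in A384T, 1.09 in WT and 0.33 in mock cells. The labels do not say what the number stands for, and its part in these values beyond the blocked fit was not tested.

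**Figure D4:**
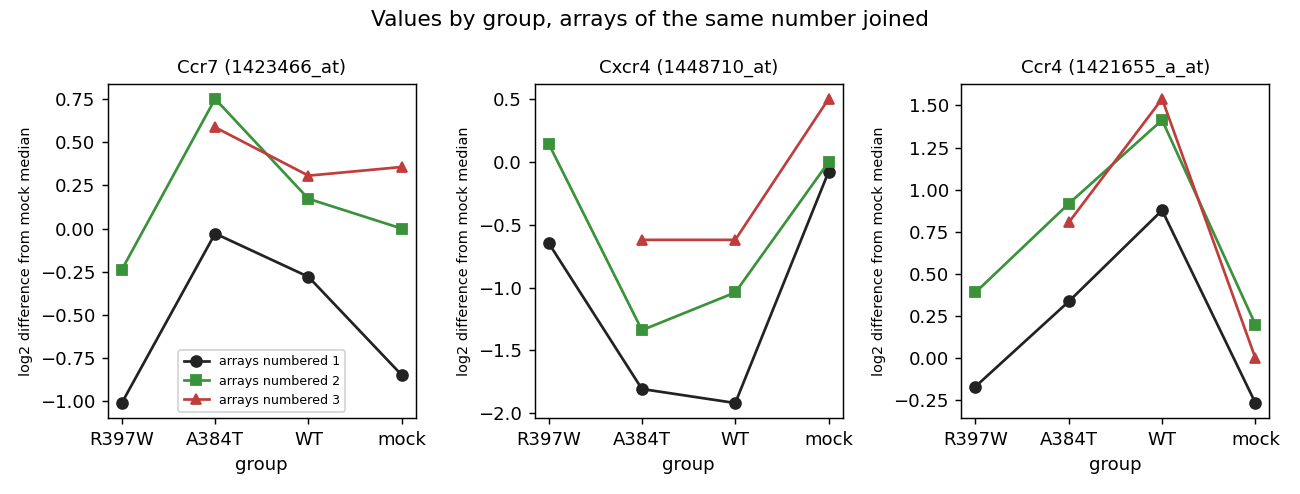
Log2 difference from the mock median (y axis) by group (x axis) for Ccr7, Cxcr4 and Ccr4, with arrays of the same number joined by a line. R397W has no array numbered 3. The line of the arrays numbered 1 is the lowest in every group, and for Cxcr4 and Ccr4 each line has the same order of A384T, WT and mock as the means except for Cxcr4 between A384T and WT, which differ by -0.06.

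Ccr6, the CCL20 receptor of type 17 helper and some Treg cells, Ccr8, the CCL1 receptor of skin T cells and Treg cells, Ccr9, the CCL25 receptor of gut-homing cells, and Cxcr5, the CXCL13 receptor of follicular helper cells, were not called in any comparison. Over their 8 probe sets and all 6 comparisons the differences ran from -0.22 to 0.31, and the lowest adjusted p was 0.456 (0.119 with the block). Ccr8, which is often high in Treg cells of tissues, was at -0.10 on both R397W arrays, -0.36, -0.10 and -0.01 on the A384T arrays, -0.07, -0.07 and -0.29 on the WT arrays, and -0.11, 0.00 and 0.05 on the mock arrays. The groups overlapped. At 6 of the 8 probe sets, 2 or 3 arrays held exactly the same value, which happened at 0 of the 10 probe sets of the other receptors. The 5 Ccr9 probe sets did not follow each other over the arrays, with Pearson's r from -0.729 to 0.572 over 10 pairs. Whether these transcripts were detected at all cannot be read from values centred on mock.

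Set side by side, the 2 mutant forms differed in their receptor calls, and the calls between them depended on the fit. In A384T over WT cells limma called 0 of 18 probe sets, against 0.102% of all, 5 of the 18 had an unadjusted p under 0.05 (both of Cxcr6, Cxcr3, Ccr4 and 1 of Ccr9, against 4.1% of all), and with the block 2 were called (Cxcr3 and Ccr4, against 0.515% of all). Over all probe sets 0.0444% were called higher and 0.0577% lower. In R397W over WT cells 3 of 18 were called, against 1.75% of all probe sets, and all 3 were higher (both Cxcr6 probe sets and 1 of Ccr2, where 0.759% of all probe sets were called higher and 0.99% lower). With the block 9 of 18 were called (5.78% of all), the added ones being the other 3 of Ccr2 and those of Cxcr4, Ccr4 and Cxcr3. In R397W over A384T cells 3 of 18 were called, against 1.47% of all probe sets, 1 of Cxcr6 and 1 of Ccr2 higher (against 0.615% of all) and Cxcr3 lower (against 0.853%). With the block 9 of 18 were called (5.7% of all), the added ones being the second of Cxcr6, another 2 of Ccr2 and those of Cxcr4, Ccr4 and Ccr7. After quantile normalization 0 of 18 were called in R397W over A384T (281 of all probe sets). With only these 2 groups fitted 1 was called (118 of all probe sets). The comparisons share arrays, so their counts are not independent of each other.

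Cxcr6 and Ccr2 lie in the chemokine receptor cluster of mouse chromosome 9. The whole chromosome carries 6 of the 10 members. Cxcr5, Ccr4 and Ccr8 lie outside the cluster, with 50 protein-coding genes between Ccr8 and Ccr9. In the RefSeq order of protein-coding genes, Ccr9 is followed after 1 other gene by Cxcr6, and Xcr1, Ccr1, Ccr1l1, Ccr3 and Ccr2 come next in that order with no other gene between them. The neighbours between Cxcr6 and Ccr2 had differences near 0. In A384T over mock, Xcr1, the XCL1 receptor of dendritic cells, was at -0.04, the 2 probe sets of Ccr1 at -0.07 and 0.06, Ccr1l1 at -0.07 and Ccr3, the eotaxin receptor, at 0.09. In WT over mock the values were -0.09 for Xcr1, -0.04 and 0.05 for Ccr1, 0.01 for Ccr1l1 and -0.07 for Ccr3. None of the 5 probe sets was called in any of the 6 comparisons, with or without the block. Whether the transcripts of these neighbours were detected cannot be read from values centred on mock.

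Other receptors for chemokines and related attractants, 22 genes with 32 probe sets, had 1 higher and 1 lower in A384T over mock (6.25% of the list, against 2.17% of all probe sets) and 1 higher and 0 lower in WT over mock (3.12%, against 2.66% of all). Counts this small are near those shares of all probe sets. With the block 15.6% of the list was called in A384T over mock and 18.8% in WT over mock, against 7.33% and 7.63% of all. The gene that rose in both was Ccrl2, an atypical receptor that binds chemerin without signalling, by 1.12 ± 0.22 with A384T (adjusted p = 0.0317) and by 1.60 ± 0.22 with WT FoxP3 (adjusted p = 0.00397). Gpr183, the oxysterol receptor EBI2 that positions T cells at the edge of follicles, fell in A384T over mock (-1.43 ± 0.14 at probe set 1437356_at, adjusted p = 0.00067) and was at -0.42 ± 0.14 in WT over mock (adjusted p = 0.239, and 0.0323 with the block, ranging up to 0.656 over 17 alternatives). Its A384T over WT difference passed the test (-1.01 ± 0.14, adjusted p = 0.0418). Its second probe set, 1457691_at, was at -2.11 ± 1.05 in A384T over mock (adjusted p = 0.503) and at -0.98 ± 1.05 in WT over mock (adjusted p = 0.868). With the block both passed, with adjusted p-values of 0.000216 and 0.02, each ranging up to 1 over 18 alternatives. The ligands of the 10 receptors, 15 genes with 22 probe sets, had 0 called in every comparison, with or without the block.

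Signalling and trafficking genes of chemokine receptors, 33 genes with 71 probe sets, had 1 higher and 1 lower in A384T over mock (2.82% of the list, near the 2.17% of all probe sets) and 1 higher and 4 lower in WT over mock (7.04%, against 2.66% of all). With the block 11.3% of the list was called in A384T over mock and 14.1% in WT over mock, against 7.33% and 7.63% of all. Rgs1, which speeds the shut-off of G proteins and blunts migration to chemokines, rose by 2.56 ± 0.31 in A384T over mock (adjusted p = 0.00183) and by 2.91 ± 0.31 in WT over mock (adjusted p = 0.000788). Pik3cg, the catalytic subunit p110-gamma of the PI3 kinase downstream of these receptors, fell at probe set 1422707_at, with -0.73 in A384T over mock (adjusted p = 0.0096) and -0.97 in WT over mock (adjusted p = 0.00166), and at 1422708_at in WT over mock (-1.19, adjusted p = 0.0492). In A384T over mock 1422708_at passed only with the block (-0.98, blocked adjusted p = 0.00242, ranging up to 0.432 over 18 alternatives). Arrb2, beta-arrestin 2, which takes receptors off the surface, fell in WT over mock at 2 probe sets (-0.55 with an adjusted p of 0.046, and -0.41 with 0.0494). In R397W over mock 0 of the 71 were called.

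Other homing molecules, 13 genes with 32 probe sets, had 2 higher and 4 lower in A384T over mock, against 1.25% higher and 0.917% lower of all probe sets. They had 3 higher and 5 lower in WT over mock, against 1.49% higher and 1.17% lower of all. With the block 31.2% of the list was called in A384T over mock and 40.6% in WT over mock, against 7.33% and 7.63% of all. St3gal6, a sialyltransferase that helps build selectin ligands, was lower at 3 probe sets in both comparisons (-2.41, -2.19 and -1.38 in A384T over mock, and -2.87, -2.41 and -1.65 in WT over mock). Its probe sets 1443740_at and 1447841_x_at were not called, at -0.08 and -0.15 in A384T over mock and -0.16 and -0.20 in WT over mock. Itga4, the alpha4 integrin chain, fell in WT over mock (-1.73, adjusted p = 0.00257 at probe set 1436037_at) and was at 0.27 in A384T over mock, and the A384T over WT difference passed the test (2.00 ± 0.22, adjusted p = 0.0145). Its other 4 probe sets were not called in these comparisons without the block. With it 1456498_at was called in WT over mock (-1.50, adjusted p = 0.000102, ranging up to 0.5) and in A384T over WT (1.83, 0.000368, ranging up to 1), and 1421194_at in A384T over WT (0.80, 0.0294, ranging up to 1). Itgae, the CD103 chain that binds E-cadherin, rose in A384T over mock at probe set 1447541_s_at (1.91, adjusted p = 0.00387) and in WT over mock at that one (adjusted p = 0.00024) and at 1449216_at (1.74, adjusted p = 0.00411). Fut7, a fucosyltransferase for selectin ligands, rose in A384T over mock (0.62, adjusted p = 0.0268).

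Of transcription factors known to act on these receptors, 19 genes with 50 probe sets, 3 probe sets were higher and 2 lower in A384T over mock (10.0% of the list, against 2.17% of all probe sets), and 3 higher and 0 lower in WT over mock (6.0%, against 2.66% of all). With the block 22.0% of the list was called in A384T over mock and 28.0% in WT over mock, against 7.33% and 7.63% of all. Id3 rose at its probe set 1416630_at (2.49 in A384T over mock and 2.24 in WT over mock). Ikzf2 (Helios) rose in both at 1 of its 3 probe sets, 1437542_at (1.39 and 1.95 in the same comparisons), while 1421643_at was at 0.24 and 0.04 and 1456956_at at 0.80 and 1.11. Of these, 1456956_at passed in WT over mock with the block (adjusted p = 0.0251, ranging up to 0.281). Irf4 rose in both at 1 of its 2 probe sets, 1421173_at (2.61 in A384T over mock and 2.24 in WT over mock), while 1421174_at was at 0.15 and 0.19. Klf2, which maintains Ccr7 and other homing genes of naive cells, fell in A384T over mock (-0.96, adjusted p = 0.037) and was at -0.67 in WT over mock (adjusted p = 0.15, and 0.0126 with the block, ranging up to 0.447 over 18 alternatives). A Runx3 probe set, 1440275_at, fell in A384T over mock (-0.98, adjusted p = 0.00253) and was at -0.35 in WT over mock (adjusted p = 0.254). Its other probe set, 1421467_at, passed only with the block, at -1.01 in A384T over mock (blocked adjusted p = 0.00168, ranging up to 0.388 over 18 alternatives) and -0.59 in WT over mock (0.0309, ranging up to 0.89). No probe set of these lists was called in R397W over mock.

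The genes whose values over the 11 arrays were most like each called member are given as a description, since arrays of 1 group share their treatment. For Cxcr6 they were Tdrp (Pearson's r = 0.972) and A930005H10Rik (0.972), for Ccr2 Atf7ip (0.983) and Klhl6 (0.98), for Cxcr3 Zbp1 (0.965) and Etv6 (0.958), and for Ccr4 Nabp1 (0.967) and Acvr1 (0.965). Tdrp had differences over mock of 0.12 with R397W, -1.49 with A384T and -2.24 with WT, the same order as Cxcr6. Etv6 was at 0.09, 0.98 and 0.47 in the same comparisons, with A384T highest as at Cxcr3. Both genes were chosen for their likeness to the member on these same arrays, so a shared order follows from that choice.

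Markers of cell types other than CD4 T cells were read beside these results, since Ccr2, Cxcr3 and Cxcr6 are also carried by monocytes or NK cells. The B cell list (9 of 10 genes measured, 13 probe sets) and the granulocyte and mast cell list (9 of 10 genes, 10 probe sets) had 0 called in any comparison. The list of macrophages, monocytes and dendritic cells (11 of 14 genes, 14 probe sets) had 1 lower in A384T over mock, Adgre1 (-1.13, adjusted p = 0.0131), and its median stayed between -0.05 and 0.07 on all arrays. The list of CD8, NK and gamma-delta T cells (6 of 10 genes, 11 probe sets) had 1 lower in both A384T and WT over mock, Klrd1, the CD94 chain of NK receptors (-3.19 with A384T, adjusted p = 0.000345, and -3.28 with WT FoxP3, adjusted p = 0.000245), with a median between -0.004 and 0.20 on all arrays. The erythroid and platelet list (8 of 10 genes, 10 probe sets) had 0 called without the block. Of the CD4 T cell list (9 of 10 genes, 13 probe sets), Cd2 rose in both and Cd28 fell in A384T over mock at 1417597_at, and Cd5 and 1 probe set of Zap70 fell in WT over mock. Cd28 probe set 1437025_at was at -0.47 in A384T over mock (adjusted p = 0.653, and 0.036 with the block). The part of Adgre1, Klrd1 or cells that carry them in the receptor values was not tested.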

How the data were processed

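RNA of 11 samples was labelled with biotin and hybridised to Affymetrix arrays, 1 array per sample. The deposited values are log2 values made with RMA (background correction, quantile normalization, 1 value per probe set), per the submitters' processing notes, where no version is named. In the deposited table the median of the 3 mock arrays was 0 at all 45101 probe sets. Each probe set had thus been centred on mock, a step that, like the base of the logarithm, is not stated in the sources used here. Base 2 was assumed because RMA returns it. Centring keeps differences between arrays and removes levels, so no filter on dim probe sets was possible, and background correction and the first normalization could not be varied.

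Symbols are those of the platform annotation. After removal of 64 array controls, 45037 probe sets were left, of which 34945 had 1 symbol, 932 several and 9160 none listed, and the Entrez identifiers of all 18 member probe sets matched their symbols in RefSeq (GRCm38.p6, used for names, gene order and promoters).

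Groups were taken from the sample titles. The model in limma 3.58.1 (run in R 4.3.3) held a mean for each group and used all 11 arrays, which left 7 residual degrees of freedom. Moderated tests (eBayes) of 6 contrasts were adjusted over 45037 probe sets. The median SE was 0.155 for contrasts with R397W and 0.139 for the others, and the number of arrays limits the precision. The fits were tested on simulated data. Whether array numbers pair the arrays was checked from deviations from the group means: same-numbered arrays correlated at 0.107 to 0.718 in all 15 pairs, 9 of them among the A384T, WT and mock groups, and differently numbered arrays at -0.695 to 0.344. The number was therefore fitted as a block in an alternative. The calls come from the fit without it, which leaves any such pairing out. The 2 R397W arrays mirror each other by construction, and A384T 2 correlated better with the mock and WT arrays numbered 3 (0.283 and 0.276) than with those numbered 2 (0.107 and 0.177). The alternatives were the block, each array left out, the arrays numbered 1 left out, 1 probe set or the mean per gene, a robust prior, only the 2 groups of a contrast, and 2 rescalings.

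The members, gene lists and tests were chosen with earlier results of these data known. All members are named, from each other list up to 6 called genes with the largest difference could be named, of which the text gives a part, and for each called member the 2 genes with the highest correlation. Tables and figures used Python 3.11.15, pandas 2.3.3 and matplotlib 3.10.9.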

Additional observations from a re-analysis of the deposited data

How the results depend on the processing

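Of 2004 values of single receptor probe sets under the alternatives, 0 called values changed sign, 70 lost their call, 43 gained one and 1891 stayed on the same side, of which 96 changed sign without a call in either fit. With the array number as a replicate block, called receptor probe sets came to 10 for A384T over mock (4 without it), 9 for WT over mock (4), 2 for A384T over WT (0), 9 for R397W over WT (3) and 9 for R397W over A384T (3), and the block lost no receptor call and added none but those named above. Quantile normalization of the deposited values left 0 for A384T over mock, 2 for WT over mock, 0 for R397W over A384T and 1 for R397W over WT. RMA had already normalized these values, which were centred on mock. This second step therefore gave every array the same distribution of differences from mock, and does not test the normalization of array signals. It also lowered the calls over all probe sets, to 443 for A384T over mock (976 without it, 3303 with the block) and 478 for WT over mock (1198 without it, 3438 with the block). For the other comparisons calls over all probe sets were 788 (278 after quantile normalization, 2603 with the block) for R397W over WT, 661 (281, 2568) for R397W over A384T and 46 (4, 232) for A384T over WT. Without the arrays numbered 1, which leaves 1 R397W array whose spread is assumed to be that of the other groups, 0 receptor probe sets were called for A384T over mock, 3 for WT over mock, 0 for R397W over A384T and 2 for R397W over WT. Over all probe sets the calls came to 367, 535, 97 and 181 in these 4 comparisons. With only the 2 groups of a comparison fitted, 2 were called for A384T over mock (554 over all probe sets) and 1 for R397W over A384T (118 over all). Without 1 array at a time the counts ran from 1 to 4 for A384T over mock, from 2 to 5 for WT over mock, from 0 to 4 for R397W over A384T and from 1 to 4 for R397W over WT, and stayed at 0 for the other comparisons. They fell by over 1.5 times without A384T 1 (1), A384T 2 (2) or mock 3 (2) for A384T over mock, without WT 2, mock 1 or mock 3 (2 each) for WT over mock, without R397W 1 (1) for R397W over WT, and without R397W 1 (0), R397W 2 (0), A384T 1 (1) or A384T 2 (1) for R397W over A384T. Leaving out an R397W array leaves 1 array in that group, so counts over all probe sets are not given for those fits. Without any of these arrays, whether of R397W, A384T, WT or mock, calls over all probe sets fell too. For A384T over mock they came to 607, 597 and 649 without A384T 1, A384T 2 or mock 3 (976 with all arrays). For WT over mock they came to 684, 780 and 766 without WT 2, mock 1 or mock 3 (1198). For R397W over A384T they came to 396 and 386 without A384T 1 or A384T 2 (661). Median-centred arrays and the robust prior gave the same receptor counts as reported. With 1 probe set per gene, 3 of the 10 genes were called in each of the 4 comparisons that had calls, and R397W over WT then included Ccr4 (adjusted p = 0.0454). Over all 18193 genes the calls were 577 for A384T over mock, 659 for WT over mock, 413 for R397W over A384T and 459 for R397W over WT. The mean of a gene's probe sets gave 2 for R397W over A384T and 3 for the other 3. Over all genes it gave 755, 877, 518 and 591 in the same 4 comparisons. The causes of these changes were not tested. R397W has 2 arrays and the widest errors, and a receptor of low signal could not be told from one that did not change.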
